A study of Trichoderma reesei with 6 samples.

Results

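Genes of Trichoderma reesei that were expressed on lactose at a level between those on glucose and glycerol are described here. A gene was taken when the mean log2 signal of its lactose arrays lay between the glucose and glycerol means and was at least 1 (2-fold) away from each. Of the 9126 array features, 89 (0.975%) met this rule. In 55 of them glucose gave the lowest and glycerol the highest level (glucose lowest), and in 34 glycerol gave the lowest and glucose the highest (glycerol lowest). The same means chose the genes, so their levels are given as a description.

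Strain QM9414, a cellulase-producing mutant of the wild-type isolate QM6a, was grown with 10 g/l of lactose, glucose or glycerol as the carbon source. Transcripts were measured on single-colour NimbleGen oligonucleotide arrays, 2 per carbon source and 6 in all. According to the sample labels the lactose cultures were grown for 28 h and the other cultures for 24 h, whereas the methods of the study give 24 h for every culture. In the comparisons with lactose, carbon source and labelled culture time therefore cannot be told apart, while glucose and glycerol share their labelled time. The study places its profiles on all 3 carbon sources in the initial growth phase. The labels speak of duplicate flasks and also of mixed replicates of mycelium, and the spread between the arrays of a group may therefore be partly technical. The arrays measured whole mycelium, in which fewer cells holding a transcript and less transcript per cell cannot be told apart.

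Lactose is a disaccharide of galactose and glucose that T. reesei takes up slowly, and it induces the cellulases of this fungus. Glucose is the preferred sugar and represses many genes through carbon catabolite repression, in which the zinc finger protein CRE1 acts, while glycerol neither induces cellulases nor represses as strongly as glucose. Genes are commonly called regulated by lactose where they differ from both other carbon sources in 1 direction. The genes described here fall outside such calls by construction, because lactose was above 1 carbon source and below the other.

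The arrays had medians of 10.80 to 10.85 on the log2 scale, and the arrays of a group correlated at 0.996 to 0.998 across features. The translation elongation factor gene tef1 gave 13.66 and 13.64 on the lactose arrays, 13.90 and 13.57 on the glucose arrays, and 13.62 and 13.38 on the glycerol arrays. The cellobiohydrolase gene cel7a had 14.23 and 14.22 on lactose, 6.12 and 6.45 on glucose, and 7.64 and 7.78 on glycerol. The lactose arrays thus stood above all others for this cellulase, while the glucose arrays overlapped those of both other carbon sources for tef1. The lowest 10% of all signals lay under 4.66, which is called the low end below. Differences of a gene at the low end depend on signals near the floor of the arrays.

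Of the 546 features that differed at least 4-fold between glucose and glycerol, 89 (16.3%) had lactose between with 2-fold to spare on either side. Glycerol was at least 4-fold above glucose for 279 features. Among these, lactose was 2-fold or more above glycerol in 51 (18.3%), within 2-fold of glycerol in 82 (29.4%), between with 2-fold to spare in the 55 glucose lowest genes (19.7%), within 2-fold of glucose in 71 (25.4%) and 2-fold or more below glucose in 20 (7.17%). Glucose was at least 4-fold above glycerol for 267 features. Here lactose was 2-fold or more above glucose in 19 (7.12%), within 2-fold of glucose in 48 (18.0%), between in the 34 glycerol lowest genes (12.7%), within 2-fold of glycerol in 122 (45.7%) and 2-fold or more below glycerol in 44 (16.5%). In both sets most features thus had lactose within 2-fold of 1 of the 2 other carbon sources or beyond them. The classes set part of this outcome. For a feature just 4-fold apart, 2-fold from each side leaves almost no room between, and the room grows with the interval.

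**Figure D1:**
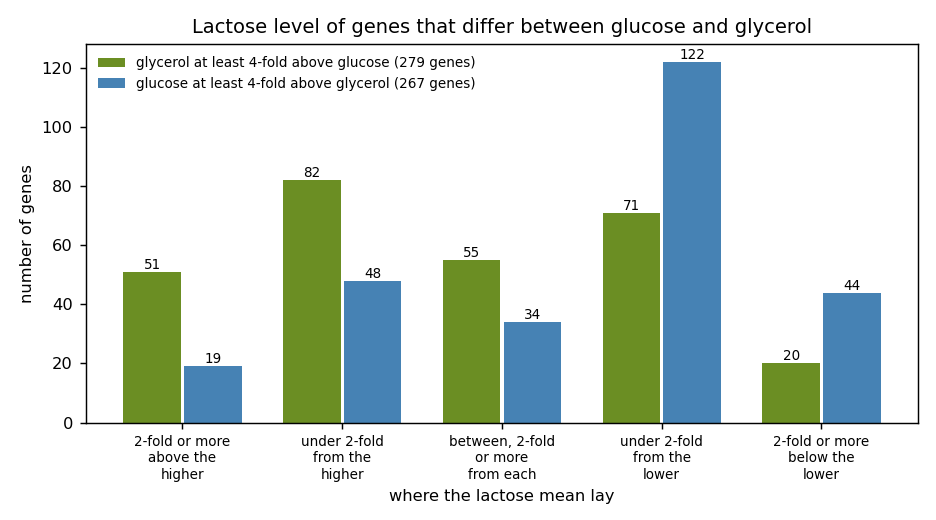
Number of genes (vertical axis) by the place of their lactose mean (horizontal axis) among the features at least 4-fold apart between glucose and glycerol. The 2 bars over "between" are the 55 glucose lowest and the 34 glycerol lowest genes, and the tallest bar holds 122 genes that were high on glucose and on lactose lay within 2-fold of glycerol.

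All 89 genes passed both lactose comparisons in limma at an adjusted p under 0.05 (Benjamini-Hochberg over all features), with 48.6% of all features passing both by the adjusted p alone. The first comparison, with glucose, was passed by 62.9% of all features and the second, with glycerol, by 59.8%. The largest adjusted p of either comparison was 0.0013 among the glucose lowest and 0.007 among the glycerol lowest genes. All 89 genes also had arrays that did not overlap between the carbon sources, which held for 4.82% of all features in the glucose lowest and 4.84% in the glycerol lowest order. The rule used the same arrays and fixed these counts for the most part. With the further condition of over 2-fold, lactose exceeded glucose in 15.5% of all features and fell short of it in 13.9%, and it exceeded glycerol in 14.6% and fell short of it in 12.5%. Glucose exceeded glycerol in 8.49% and fell short of it in 9.07% by the same conditions, and 42.7% passed this comparison by the adjusted p alone.

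The rule was also applied to the arrays of 1 replicate number at a time and the genes then looked up on the other arrays. Genes chosen on the replicate 1 arrays alone numbered 51 in the glucose lowest order, and all 51 kept lactose between in the same order on the replicate 2 arrays, 41 of them still at 2-fold from each. In the glycerol lowest order 38 genes were chosen on the replicate 1 arrays, all 38 kept the order on the replicate 2 arrays, and 19 of them were still at 2-fold from each. Chosen on the replicate 2 arrays, 56 and 30 genes kept their order on the replicate 1 arrays without exception, and 41 and 19 of them were still at 2-fold from each. A gene that is 2-fold from both other carbon sources on arrays with so small a spread can hardly lose its order. The counts of genes that kept their order were thus largely set by the choice. The counts at 2-fold are the ones that can differ between the replicates, and they fell short of the genes chosen in both orders. These are the same arrays that chose the genes described here, and the spread within a group may be partly technical, as stated above. The counts therefore describe the spread between these arrays and do not test the list of genes on new cultures.

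The glucose lowest genes had a median lactose signal of 9.24, a median glucose signal of 6.55 and a median glycerol signal of 12.00, against 10.84, 10.84 and 10.81 over all features. Glycerol was 4.16- to 483-fold above glucose, with a median of 17.2-fold, and the widest interval had glucose at the low end. The lactose level lay between 17.0% and 81.5% of the way up from glucose to glycerol on the log2 scale, with a median of 52.0%, and was nearer to glycerol in 34 and nearer to glucose in 21 of the 55 genes. The gene at 17.0% had both lactose and glucose at the low end, and the lowest place of a gene with no carbon source there was 24.6% (Trire2:66935). In 24 genes it lay from 40% to 60% of the way. Glucose was at the low end in 20 genes (36.4%), against 10.1% of all features, and lactose in 2. No further gene had any carbon source there. Among the other genes with glycerol at least 4-fold above glucose, 18.75% had a carbon source at the low end, and the difference was not tested. The median interval of the 35 genes with no carbon source at the low end was 13.2-fold.

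**Figure D2:**
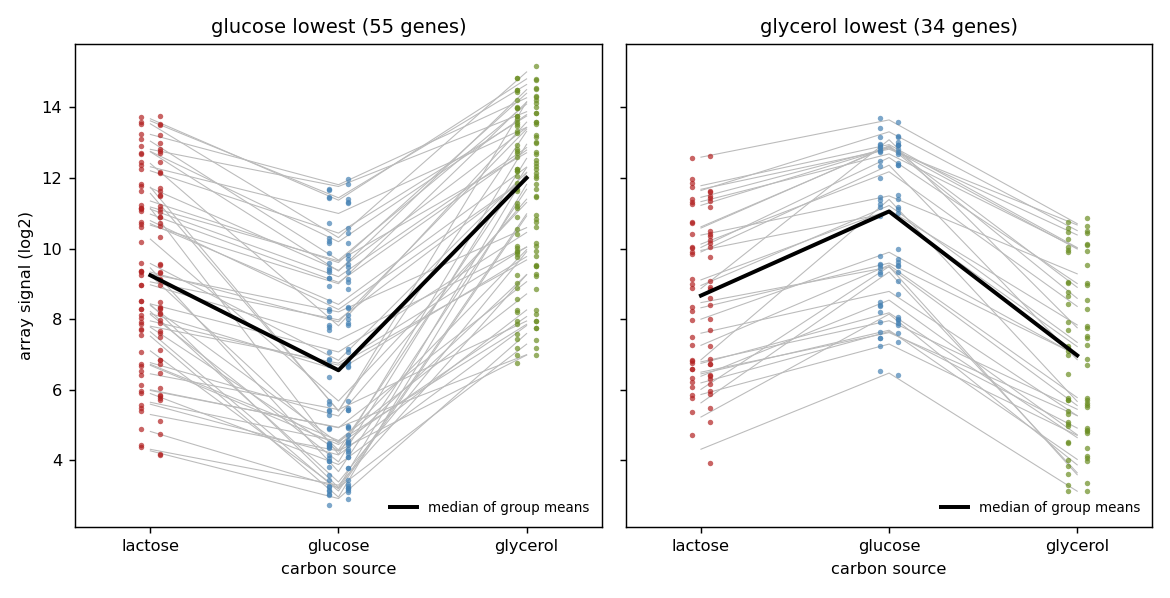
Log2 array signal (vertical axis) of the 55 glucose lowest genes (left) and the 34 glycerol lowest genes (right) on lactose, glucose and glycerol. Each point is 1 array, grey lines join the means of a gene and the black line joins the medians, 9.24, 6.55 and 12.00 on the left and 8.67, 11.05 and 6.97 on the right. Both orders hold genes over most of the signal range.

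The gene farthest from both other carbon sources was Trire2:81082. It had 7.55 and 7.48 on lactose, 3.01 and 2.90 on glucose, and 11.63 and 12.00 on glycerol. Lactose was thus 23.6-fold above glucose, where the gene was at the low end, and glycerol was 19.7-fold above lactose. Trire2:103179 had 8.11 and 8.15 on lactose, 3.81 and 4.10 on glucose, and 12.58 and 12.52 on glycerol, with steps of 18.1-fold and 21.4-fold. Trire2:52476 had 7.07 and 7.13 on lactose, 3.12 and 3.26 on glucose, and 11.20 and 10.76 on glycerol. In these 3 genes lactose stood close to the middle of a 221- to 464-fold interval with glucose at the low end, and no arrays of different carbon sources overlapped. Trire2:59368, Trire2:108586 and Trire2:4999 also had lactose at least 8-fold from each other carbon source, which made 6 genes in all, and all 6 had glucose at the low end.

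In other genes lactose was nearer to glycerol than to glucose on the log2 scale. Trire2:122780 had 11.24 and 11.04 on lactose, 4.06 and 4.28 on glucose, and 12.93 and 12.98 on glycerol. Glycerol was 3.52-fold above lactose, and lactose was 125-fold above a glucose level that was at the low end, so that the size of this step rests on the floor of the arrays. Trire2:80980 had 11.76 and 11.71 on lactose, 5.29 and 5.49 on glucose, and 14.20 and 14.11 on glycerol, and Trire2:54768 had 11.64 and 11.48 on lactose, 5.39 and 5.42 on glucose, and 13.48 and 13.16 on glycerol. Glycerol was 5.34-fold above lactose in the first of these genes and 3.38-fold in the second, and their glucose signals were above the low end. The lactose level nearest to glycerol in relation to the interval was that of Trire2:70907, at 81.5% of the way, with 10.19 and 10.34 on lactose, 5.68 and 5.68 on glucose, and 11.14 and 11.47 on glycerol.

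The opposite shape, with lactose nearer to glucose than to glycerol, was seen in Trire2:109344 and Trire2:44362. Trire2:109344 had 4.43 and 4.19 on lactose, 3.15 and 3.44 on glucose, and 9.25 and 9.27 on glycerol, and both lower levels were at the low end. Trire2:44362 had 9.34 and 9.33 on lactose, 7.84 and 8.00 on glucose, and 13.54 and 13.23 on glycerol, so that glycerol was 16.6-fold above lactose and lactose 2.66-fold above glucose. All signals of the second gene were well above the low end. Trire2:66935, named after its values were seen, was of the same shape and lay at 24.6% of the way, with 6.69 and 6.85 on lactose, 5.60 and 4.91 on glucose, and 11.30 and 11.49 on glycerol.

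Strongly expressed genes were found as well. Trire2:32712 had 13.74 and 13.50 on lactose, 11.47 and 11.40 on glucose, and 14.50 and 14.79 on glycerol. Trire2:58356 had 13.59 and 13.76 on lactose, 11.43 and 11.31 on glucose, and 14.83 and 14.78 on glycerol, and Trire2:55272 had 13.53 and 13.53 on lactose, 10.17 and 10.45 on glucose, and 14.83 and 15.17 on glycerol. In these 3 genes the lactose level lay 67.1% to 68.7% of the way towards glycerol. Also among the 5 brightest on lactose, Trire2:44747 lay at 57.9% and Trire2:102908 at 76.2% of the way. At the other end of the signal range, Trire2:103049 had 4.38 and 4.16 on lactose, 2.74 and 3.10 on glucose, and 7.44 and 7.74 on glycerol. Its lactose and glucose signals were both at the low end, so the order of these carbon sources is uncertain for it.

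The glycerol lowest genes had a median lactose signal of 8.67, a median glucose signal of 11.05 and a median glycerol signal of 6.97. Glucose was 4.43- to 59.7-fold above glycerol, with a median of 11.5-fold. The lactose level lay 20.6% to 74.4% of the way up from glycerol to glucose, with a median of 45.5%, and was nearer to glycerol in 23 and nearer to glucose in 11 of the 34 genes. Glycerol was at the low end in 6 genes (17.6%), against 10.0% of all features, and lactose in 1. No further gene had any carbon source there. Among the other genes with glucose at least 4-fold above glycerol, 26.2% had a carbon source at the low end, a larger share than in this order. No gene of this order had lactose at least 8-fold from each other carbon source, and 3 had it at least 4-fold away, against 9 of the 55 glucose lowest genes.

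**Figure D3:**
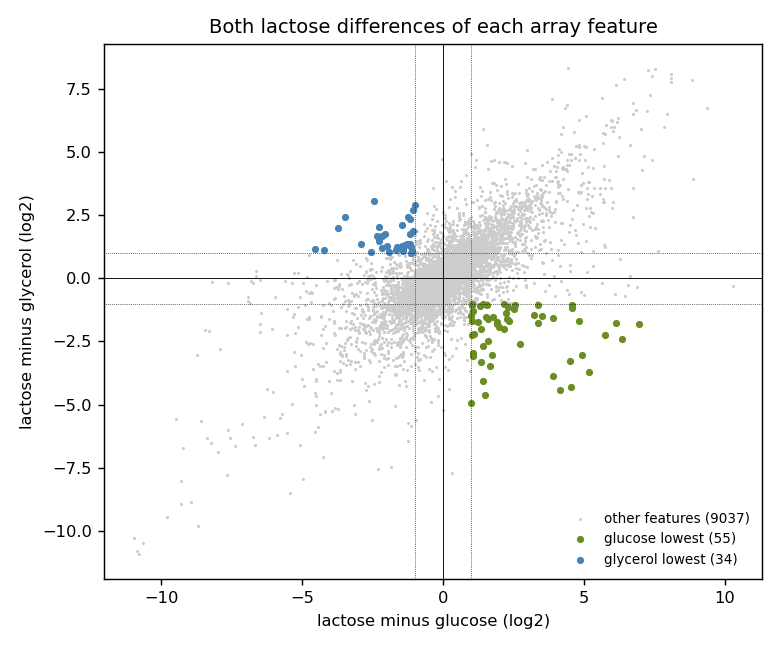
Difference of the lactose mean from the glucose mean (horizontal axis, log2) against its difference from the glycerol mean (vertical axis, log2) for all 9126 features. Dotted lines mark 2-fold. The 55 glucose lowest genes fill the lower right corner and reach 6.97 and -4.95, and the 34 glycerol lowest genes fill the upper left corner and reach -4.54 and 3.05.

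Lactose was farthest from both in Trire2:124002. It had 10.04 and 9.77 on lactose, 12.35 and 12.37 on glucose, and 6.44 and 7.27 on glycerol, so that lactose was 8.28-fold above glycerol and glucose 5.50-fold above lactose. The glycerol arrays of this gene differed from each other more than those of the other carbon sources, but remained below both lactose arrays. Trire2:70933 had 6.07 and 5.95 on lactose, 9.27 and 9.71 on glucose, and 3.83 and 3.35 on glycerol, the last at the low end. Trire2:54865 had 10.72 and 10.51 on lactose, 12.95 and 12.83 on glucose, and 8.64 and 8.54 on glycerol. All of its signals were far from the low end, and lactose stood 4.07-fold above glycerol and glucose 4.85-fold above lactose.

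In several genes of this order glucose stood apart. Trire2:57015 had 6.82 and 6.87 on lactose, 11.37 and 11.41 on glucose, and 5.72 and 5.62 on glycerol. Trire2:106686 had 8.88 and 8.86 on lactose, 13.15 and 13.01 on glucose, and 7.70 and 7.81 on glycerol. Glucose was 23.3-fold above lactose in the first gene and 18.6-fold in the second, while lactose was 2.26-fold and 2.16-fold above glycerol. Glycerol stood apart in Trire2:66544, which lay at the edge of the rule and had 8.34 and 8.59 on lactose, 9.46 and 9.49 on glucose, and 5.40 and 5.71 on glycerol. The brightest gene on lactose, Trire2:120911, had 12.56 and 12.62 on lactose, 13.69 and 13.60 on glucose, and 10.76 and 10.65 on glycerol.

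The threshold passed between genes with similar distances. Trire2:41699, the last glucose lowest gene, had a smaller distance of 1.01 (log2), with 5.91 and 6.04 on lactose, 4.91 and 4.96 on glucose, and 6.99 and 6.99 on glycerol. Trire2:123207, the first one outside, had 12.35 and 12.45 on lactose, 9.84 and 10.05 on glucose, and 13.28 and 13.49 on glycerol. In the glycerol lowest order the first gene outside was Trire2:68230, with 12.06 and 12.25 on lactose, 13.29 and 13.02 on glucose, and 9.51 and 9.26 on glycerol. In all 3 of these genes the arrays of the carbon sources did not overlap.

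The annotation used here says little of these genes. All 89 matched a gene of the RefSeq annotation of strain QM6a, but only 1 of them carries a gene symbol there, against 235 of the 9126 features. None is among the genes the study annotated. That list held genes that differed on lactose from both other carbon sources in 1 direction, so the rule kept the 89 genes out of it. The gene with a symbol is chi18-12 (Trire2:43873), a chitinase of glycosyl hydrolase family 18, whose members cleave chitin, a polymer of fungal cell walls. It had 4.72 and 3.91 on lactose, 6.52 and 6.43 on glucose, and 3.13 and 3.13 on glycerol. The lactose and glycerol means were both at the low end, and glucose was the only carbon source with a clear signal. Among the 18 GH18 genes with a symbol, lactose was over 2-fold higher than glucose at an adjusted p under 0.05 in limma in 1 and lower in 2 (15.5% and 13.9% of all features), and over 2-fold higher than glycerol in 4 and lower in 2 (14.6% and 12.5% of all features).

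Lactose lay between glucose and glycerol in 5 of the 18 GH18 genes, 3 in the glucose lowest and 2 in the glycerol lowest order, and for all features the share was 21.4%. The nearest of them to the rule was chi18-2 (Trire2:59082), which had 8.45 and 8.67 on lactose, 7.87 and 7.71 on glucose, and 10.76 and 11.58 on glycerol. Its lactose arrays were above both glucose arrays and below both glycerol arrays, but the lactose mean was only 0.77 (log2) above glucose. Among all 235 genes with a symbol, lactose lay between in 44 (18.7%). The closest outside the rule was lxr1 (Trire2:74194), first described as an L-xylulose reductase, with 13.01 and 12.90 on lactose, 11.86 and 11.82 on glucose, and 13.88 and 13.76 on glycerol.

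**Figure D4:**
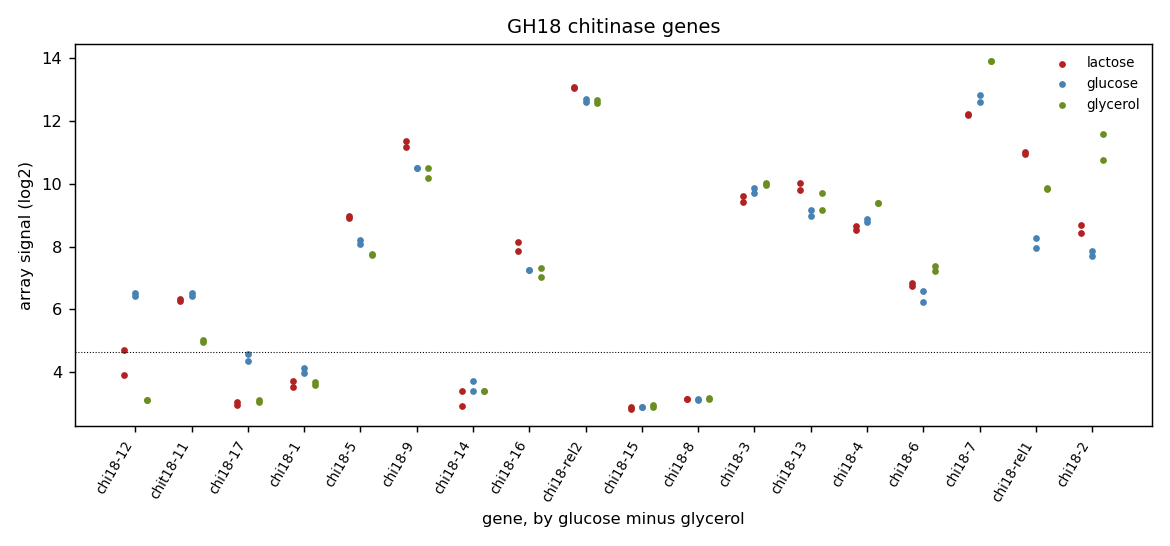
Log2 array signal (vertical axis) of the 18 GH18 genes (horizontal axis, in the order of glucose minus glycerol), with 1 point per array for lactose, glucose and glycerol from left to right in each gene. The dotted line is the low end at 4.66. The gene chi18-12 at the left, the only GH18 gene among the 89, has 1 lactose point on either side of the line and its glycerol points under it, and chi18-2 at the right has lactose between the others.

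A gene of the same disaccharide's metabolism, gal7 (Trire2:111074), encoding the galactose-1-phosphate uridylyltransferase of the Leloir pathway, also had lactose between, in the glycerol lowest order. It had 11.09 and 11.11 on lactose, 12.14 and 12.36 on glucose, and 10.67 and 10.36 on glycerol. The lactose mean was 0.59 above glycerol on the log2 scale, and gal7 was thus not among the 34 genes. The other Leloir pathway genes with a symbol did not have lactose between. The galactokinase gene gal1 was lowest on lactose, with 8.39 and 8.62 on lactose, 11.62 and 11.36 on glucose, and 10.42 and 10.84 on glycerol, and gal10, which encodes the epimerase of the pathway, had means of 12.30, 12.39 and 12.44 in the same order of carbon sources. The genes chi18-2, lxr1, gal7, gal1 and gal10 were named after their values were seen.

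Gene lengths covered a wide range. The median was 1371 bp in the glucose lowest and 1398.5 bp in the glycerol lowest order, against 1503 bp for all features. It was 1379 bp for the other genes with glycerol at least 4-fold above glucose. For the other genes with glucose at least 4-fold above glycerol it was 1471 bp. Genes under 600 bp made up 6 (10.9%) and 1 (2.94%) of the orders, against 6.89% of all features. Trire2:23171 spans 69518 bp and no other feature on the assembly is longer. It had 10.60 and 10.72 on lactose, 9.17 and 8.84 on glucose, and 13.98 and 14.31 on glycerol, with the lactose level nearer to glucose and no overlap between carbon sources.

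Some of the genes lay close together in the genome. In the RefSeq gene order of QM6a, 9 of the 89 genes (10.1%) had another of them as a direct neighbour, and 14 (15.7%) had 1 within 3 genes. Of all features, 1.92% had 1 of the 89 genes as a direct neighbour and 5.48% had 1 within 3 genes, and the difference was not tested. Closeness was not counted among the other genes at least 4-fold apart between glucose and glycerol, so it may not be particular to the 89 genes. These 14 genes formed 6 runs, of which 3 held glucose lowest genes alone and 3 held both orders. No strand is given in the annotation used, so the direction of transcription within the runs was not analysed here. Sequence names are missing as well, and a new sequence was taken to begin where the start position fell. Neighbours at sequence borders may therefore be misplaced.

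The longest unbroken run was that of Trire2:59368, Trire2:59482 and Trire2:59759, 3 consecutive glucose lowest genes over 14474 bp. Trire2:59368 had 8.52 and 8.31 on lactose, 3.24 and 3.22 on glucose, and 12.24 and 12.05 on glycerol. Trire2:59482, a gene of 7042 bp, had 9.59 and 9.56 on lactose, 6.87 and 6.79 on glucose, and 12.06 and 12.26 on glycerol, and Trire2:59759 had 5.96 and 5.82 on lactose, 3.98 and 3.78 on glucose, and 7.87 and 7.76 on glycerol. Glucose was at the low end in the first and the last of these genes, so that the width of their intervals rests on the floor of the arrays. The next gene, Trire2:59151, which the study annotates as an unknown protein with a BYS1 domain, had a lactose mean of 14.32, a glucose mean of 9.42 and a glycerol mean of 13.30, so that it shared the low level on glucose and was highest on lactose.

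A second run joined Trire2:58698, Trire2:58584 and Trire2:58356 over 13811 bp, with Trire2:76620 between the first and the second of them. Trire2:58698 had 7.72 and 7.88 on lactose, 6.84 and 6.66 on glucose, and 9.94 and 10.15 on glycerol, and Trire2:58584 had 12.71 and 12.77 on lactose, 9.16 and 9.56 on glucose, and 14.44 and 14.56 on glycerol. The gene in between them, Trire2:76620, had a lactose mean of 10.48, a glucose mean of 11.32 and a glycerol mean of 14.11, and the gene after Trire2:58356, Trire2:121107, had 11.48, 10.74 and 13.30. All 5 consecutive genes were therefore highest on glycerol, and in 4 of them glucose gave the lowest mean.

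The third run held Trire2:54768 and Trire2:44362 over 5728 bp. The gene between them, Trire2:53053, had a lactose mean of 10.00, a glucose mean of 9.14 and a glycerol mean of 13.25, and the gene after them, Trire2:103112, had 6.30, 7.98 and 11.37. These 4 consecutive genes were all highest on glycerol, but the lactose level was nearer to glycerol than to glucose in Trire2:54768, within 2-fold of glucose in Trire2:53053 and below glucose in Trire2:103112. The place of lactose thus differed between direct neighbours that shared the high level on glycerol.

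The other runs held genes of opposite order, side by side in 2 of them. Trire2:54865, a glycerol lowest gene with its values given above, is followed by Trire2:102908, which was glucose lowest with 13.10 and 12.98 on lactose, 9.88 and 9.46 on glucose, and 13.97 and 14.21 on glycerol. Trire2:70910, glycerol lowest with 11.85 and 11.44 on lactose, 13.42 and 13.19 on glucose, and 10.57 and 10.44 on glycerol, is followed by Trire2:70907, the short glucose lowest gene of 372 bp described above. In the last pair, the glucose lowest Trire2:44640 and the glycerol lowest Trire2:53872 are separated by 2 other genes, with 12.26 and 12.14 against 5.85 and 5.88 on lactose, 10.29 and 10.58 against 7.24 and 7.35 on glucose, and 13.68 and 13.83 against 4.51 and 4.90 on glycerol. The rule took genes of either order, so that a run could hold both. Of the genes between the last pair, Trire2:103403 was at the low end on all carbon sources and Trire2:53434 was highest on lactose.

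**Figure D5:**
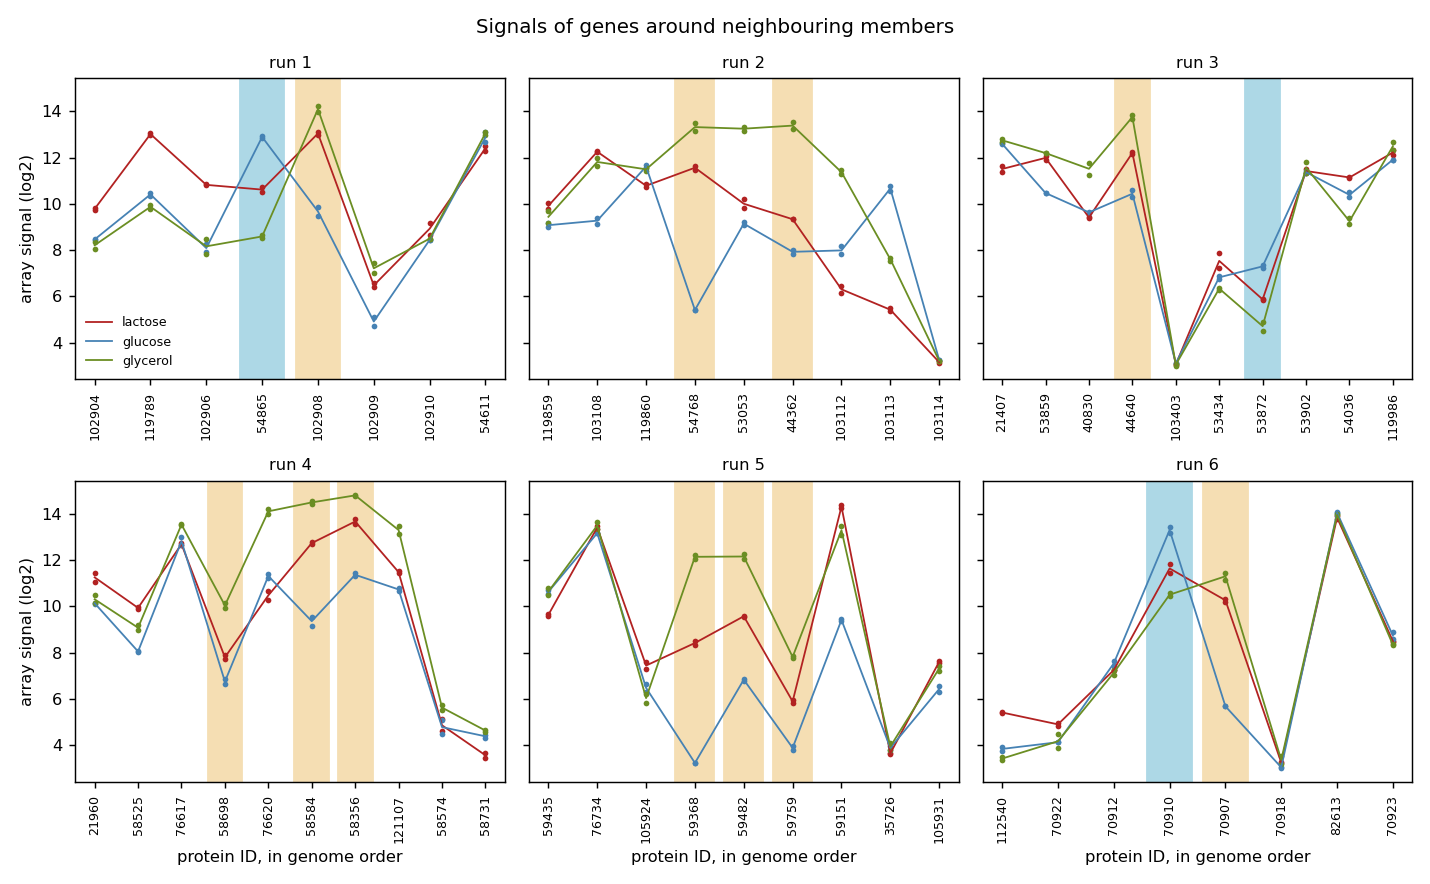
Log2 array signal (vertical axis) along the gene order (horizontal axis) in the 6 runs, for lactose (red), glucose (blue) and glycerol (green). Points are single arrays and lines join the means, shaded in beige for glucose lowest and in light blue for glycerol lowest genes. In runs 1, 3 and 6 the glucose and glycerol lines cross, and in runs 2, 4 and 5 glycerol stays above glucose through the shaded genes.

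The direct neighbours were compared between glucose and glycerol as well. Of the 100 direct neighbours of glucose lowest genes that were not among the 89, 34 were over 2-fold higher on glycerol than on glucose (34.0%, against 9.08% of all features) and 9 were over 2-fold higher on glucose (9.0%, against 8.52%). Of the 66 such neighbours of glycerol lowest genes, 20 were over 2-fold higher on glucose (30.3%) and 2 on glycerol (3.03%). Other genes that differed at least 4-fold between these carbon sources had neighbours of this kind as well. Among neighbours that were themselves under 4-fold different, 25.0% were over 2-fold higher on glycerol beside glucose lowest genes, against 17.5% beside other genes with glycerol at least 4-fold above glucose, and 13.2% were over 2-fold higher on glucose beside glycerol lowest genes, against 15.2% beside other genes with glucose at least 4-fold above glycerol. The lactose level lay between in 27.0% of the neighbours of glucose lowest genes and in 21.2% of those of glycerol lowest genes, against 21.4% of all features. The differences between these shares were not tested.

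Several direct neighbours carry an annotation, and only some of them are named here. Most of these were annotated by the study because lactose was above or below both other carbon sources, so that their own lactose level was set by that choice. Beside Trire2:58475, a glucose lowest gene with 5.57 and 5.72 on lactose, 4.50 and 4.57 on glucose, and 7.57 and 8.13 on glycerol, lies chi18-2, which shared its order. Beside Trire2:70933 lies a tripeptide peptidase gene (Trire2:82623) with a lactose mean of 5.15, a glucose mean of 13.88 and a glycerol mean of 8.21, and beside Trire2:66544 a purple acid phosphatase gene (Trire2:66616) with 7.19, 12.50 and 8.71. Both genes were highest on glucose like their glycerol lowest neighbours, but lowest on lactose. Beside Trire2:57015 lies an amino acid transporter gene (Trire2:56314) with a lactose mean of 8.16, a glucose mean of 3.83 and a glycerol mean of 3.82, and beside Trire2:124084 lies the beta-glucosidase gene cel3c (Trire2:82227) with 11.53, 8.52 and 8.46. These last genes were highest on lactose and did not share the high level on glucose of their neighbours.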

How the data were processed

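Members, gene lists and tests were chosen with earlier results of these data known. The authors deposited log2 signals, 1 per feature and array, summarised from several oligonucleotide probes per gene by RMA; the version, background correction and between-array normalization are not stated there (not given in the sources used here). They also deposited log2 means per carbon source, which gave the same genes, and folds, p-values and a score of their own comparisons, which were not used. The number of unused columns with single-array values was 0. Values entered unchanged, without a filter on low signals.

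Groups came from the sample labels, with 2 arrays each, and this number limits the precision. Means over both arrays decided membership. All 3 groups were fitted together with lmFit and eBayes (limma 3.58.1, R 4.3.3) on all 9126 features, with a prior standard deviation of 0.135 and 5.10 prior degrees of freedom, Benjamini-Hochberg adjustment and a threshold of 0.05, combined where stated with over 2-fold. The fit was tested on simulated data. Other steps used Python 3.11.15. Gene symbols, lengths and gene order came from RefSeq annotation of QM6a (assembly v2.0), which matched 9094 features by protein ID. Annotations of neighbours are those of the study, without its values.

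For each order, the text names genes from these: the 10 with the largest smaller distance of lactose, the 5 with the largest difference between glucose and glycerol, the 5 brightest and 3 dimmest on lactose, those with an annotation, those next to another, the 3 nearest to either side of the threshold and the 3 with lactose nearest the middle; tef1 and cel7a are checks of the arrays. Genes around the runs are given for their place. Of the annotated direct neighbours outside the runs only some are named, and they were picked after their values were seen. Trire2:23171, Trire2:58475 and Trire2:66935 were also named after their values were seen. Alternatives were other distances, normalizations, filters, fits and sets of arrays. Protein likeness, protein features and promoter motifs were not analysed here.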

Additional observations from a re-analysis of the deposited data

How the results depend on the processing

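The count of genes followed the distance that was set. In the glucose lowest order it was 125 at a distance of 1.5-fold, 27 at 1.5 on the log2 scale and 9 at 4-fold, against 55. In the glycerol lowest order it was 95, 8 and 3, against 34. When every single array had to be at the distance, 38 glucose lowest and 18 glycerol lowest genes remained. Without the dimmest 25% of features 30 and 17 genes remained, and the same numbers passed both lactose comparisons. Without the dimmest features, 1590 features passed for lactose against glycerol and 1032 for glucose against glycerol, where 2476 and 1603 did so among all. With no fold threshold 5743 features passed for lactose against glucose (2681 with it), 5456 for lactose against glycerol and 3899 for the comparison of glucose with glycerol.

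Leaving out each array in turn gave 48 to 61 glucose lowest and 31 to 37 glycerol lowest genes, and 40 of the 55 and 21 of the 34 genes stayed at the distance in every case. A further quantile normalization gave 45 and 35 genes, of which 42 and 30 were shared with those reported, and centring the arrays on their medians gave 58 and 31, with 55 and 31 shared. Raising all signals to the low end left 49 and 31 genes, and the smaller distance was then 0.0 for Trire2:103049 and Trire2:109344 and 0.03 for chi18-12 (Trire2:43873), so that low signals carry their place in the list. Same-numbered arrays of different carbon sources correlated at -0.01, -0.14 and 0.07 in their deviations from the group means, and the numbers were therefore not taken to pair the cultures. With the replicate block 55 and 34 genes passed both lactose comparisons and 2681, 2476 and 1602 features were called, so that the block changed no count by over 1.5 times. With 2 arrays per carbon source, differences close to 2-fold are not placed firmly on either side of the rule.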
